A study of Gallus gallus with 6 samples.

Results

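Toll-like receptor genes, with the adaptor gene MYD88 and the co-receptor gene LY96, were compared between groups of chicken monoblasts, immature cells of the monocyte and macrophage lineage. The members were all probe sets whose only gene symbol in the array annotation was TLR followed by a digit, MYD88 or LY96. This rule took 18 of 38535 probe sets, which stand for 10 of the 13051 annotated genes: TLR1A, TLR2A, TLR3, TLR4, TLR5, TLR7, TLR15, TLR21, MYD88 and LY96. A further 3 probe sets carry several symbols, at least 1 of them of the family, and name no single gene. They were left out, although all 3 passed the signal filter given below. Primary monoblasts of Brown Leghorn birds were transformed either by wild type v-Myb, an oncogenic transcription factor, or by its mutant deltaP. All cells had been moved to culture after infection and kept in the same serum-containing medium, and no group lacked v-Myb. Each group has 3 biological replicates, each on 1 Affymetrix array of biotin-labelled RNA. The series title concerns INK4A expression and the v-Myb leucine zipper region; what deltaP changes in the protein is not stated in the labels.

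Toll-like receptors recognise conserved molecules of microbes through a leucine-rich repeat domain, at the cell surface or inside endosomes. Their intracellular TIR domain recruits adaptors, above all MYD88, which assembles IRAK kinases and TRAF6 and leads to the activity of NF-kB and interferon regulatory factors. Monocytes and macrophages are among the cells that use them most, and their outputs include cytokines, chemokines and acute phase proteins. The chicken family includes TLR15 and TLR21, and duplicated genes at the places of the mammalian lipopeptide receptors.

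The deposited log2 values had been centred within replicate numbers: in every probe set the arrays numbered alike had 1 common mean over the 3 numbers, to within 0.001 log2 units. The value of a single array is therefore not its measured level, and the 6 values of a probe set hold 3 independent differences, 1 per same-numbered pair. Errors below are the SD of these 3 differences. The groups of a probe set fail to overlap exactly when all 3 differences have the same sign. In pair 3, the median difference of the added poly-A control RNAs was 0.68 log2 units and that of the hybridization controls 0.5, both higher on the deltaP side. Pairs 1 and 2 had control medians from -0.18 to 0.04. The part of this shift in any result below was not tested. Precision is limited by how few arrays there are.

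Of the 10 genes, 7 had a probe set with a log2 value over 4 in at least 3 of the 6 arrays and were tested. These were TLR1A, TLR2A, TLR4, TLR7, TLR21, LY96 and MYD88, with 8 tested probe sets. All 8 were over 4 on every array, the lowest value being 5.07, so none was tested through 1 group alone. TLR3, TLR5 and TLR15 were below that filter in every probe set. In limma with a replicate block, 0 of the 7 tested genes had an adjusted p under 0.05, and 0% of all 7768 tested genes did. At an unadjusted p under 0.05 there were 2 of 7, TLR7 and MYD88, against 9.93% of all tested genes; both were higher in deltaP, as were 3.89% of all tested genes at that threshold. Without the block 2 of 7 passed the adjusted threshold, the same 2 genes, against 8.24% of all tested genes. Adjusted p of the 7 lay between 0.239 and 0.854.

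**Figure D1:**
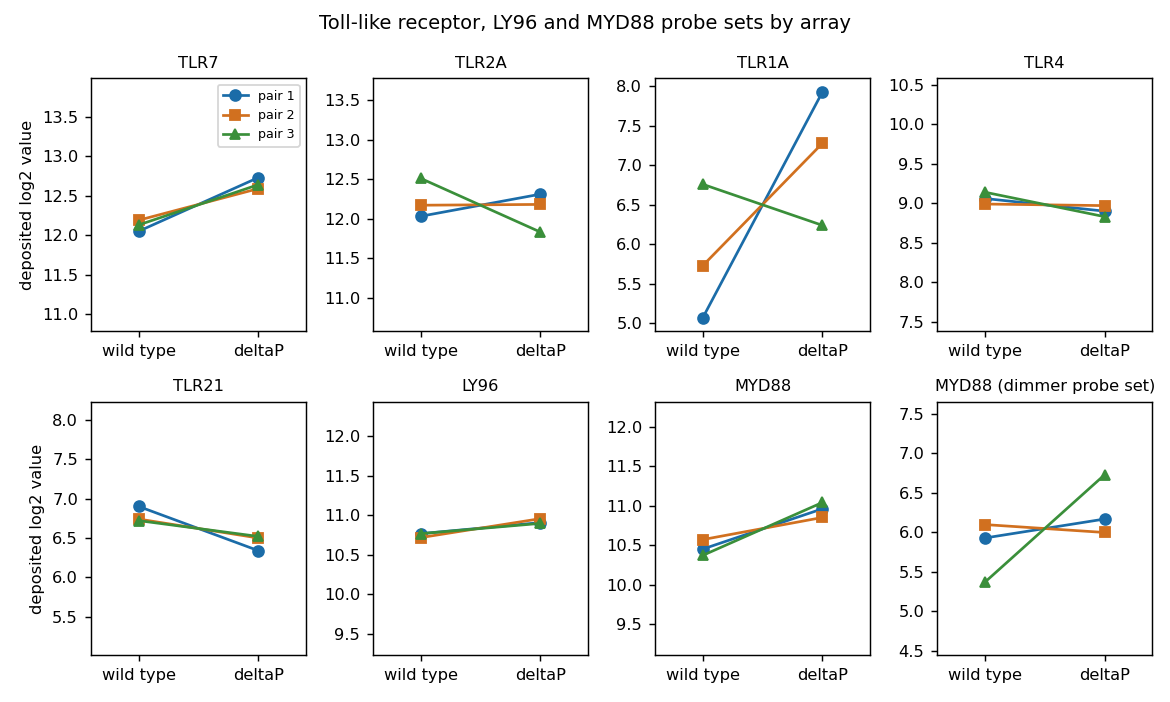
Deposited log2 values (vertical axes, each panel spanning the same number of log2 units around its own centre) of the 8 tested probe sets on the wild type and deltaP arrays, with a line joining the arrays of each same-numbered pair. The 3 lines of TLR7, of LY96 and of the brighter MYD88 probe set all run upwards, those of TLR4 and TLR21 all downwards, and those of TLR1A and TLR2A cross in direction at pair 3.

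TLR7, an endosomal receptor for single-stranded RNA, was higher in deltaP cells in 3 of 3 pairs. Its values were 12.05, 12.19 and 12.13 in wild type replicates 1, 2 and 3 and 12.73, 12.59 and 12.64 in the deltaP replicates. All 3 deltaP values were above all 3 wild type values. The pair differences of 0.69, 0.39 and 0.51 gave a mean log2 difference of 0.53 ± 0.15 (SD, n = 3 pairs), a 1.44-fold higher level. The 95% confidence interval ran from 0.26 to 0.8. In limma with the block the unadjusted p was 0.00302 and the adjusted p 0.239. TLR7 ranked 96 by p among the 7768 genes. Its size of change was at the 90.8th percentile of all tested genes and the SD of its pair differences at the 21.6th percentile. Without the block the adjusted p was 0.0113, in a fit that counts more degrees of freedom than the centred values hold, and with the block it lay between 0.198 and 1 over the alternatives. The TLR7 probe set is of the kind whose probes can match several related transcripts.

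TLR2A encodes a receptor for bacterial lipopeptides and lies next to its duplicate TLR2 in the gene table used here. Its values were 12.03, 12.17 and 12.51 in wild type and 12.31, 12.18 and 11.83 in deltaP cells, so the groups overlapped. The pair differences were 0.28, 0.01 and -0.68, with a mean of -0.13 ± 0.49 (SD, n = 3 pairs). The interval of its mean ran from -0.61 to 0.35 (limma with the block, adjusted p = 0.854). Without the arrays of pair 3 the mean turned to 0.14.

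TLR1A, a partner of the lipopeptide receptors that neighbours its duplicate TLR1B, had the widest spread of the tested members. Its values were 5.07, 5.73 and 6.76 in wild type and 7.93, 7.28 and 6.24 in deltaP cells, so the groups overlapped at pair 3. The pair differences of 2.87, 1.55 and -0.52 gave a mean of 1.3 ± 1.71 (SD, n = 3 pairs), 2.46-fold. That SD was at the 99.4th percentile of all tested genes, and limma gave an adjusted p of 0.556 (interval from -0.19 to 2.79). Without an array of pair 3 the mean was 2.21 with an adjusted p of 0.177 in limma, and without an array of pair 1 it was 0.52 with an adjusted p of 1. Over all alternatives the adjusted p lay between 0.177 and 1. The probe set is of the kind that can match several related transcripts, so it may include the duplicate.

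TLR4, the receptor for bacterial lipopolysaccharide, had a size of change at the 50.1st percentile of all tested genes. Its values were 9.06, 8.99 and 9.14 in wild type and 8.9, 8.97 and 8.83 in deltaP cells. All deltaP values were below all wild type values. They were lower in 3 of 3 pairs, by 0.02 log2 units in pair 2 at the least. The mean difference was -0.16 ± 0.14 (SD, n = 3 pairs), and its interval ran from -0.51 to 0.19 (limma with the block, adjusted p = 0.749). Without an array of pair 3 the mean was -0.09. LY96, the secreted protein that binds lipopolysaccharide together with TLR4, had the smallest spread of the tested members. Its values were 10.77, 10.72 and 10.77 in wild type and 10.91, 10.96 and 10.9 in deltaP cells. All deltaP values were above all wild type values, by a mean of 0.17 ± 0.06 (SD, n = 3 pairs), 1.13-fold. The interval included 0, running from -0.1 to 0.44 (limma with the block, adjusted p = 0.659), and the SD was at the 4.6th percentile of all tested genes. TLR4 and LY96 thus had opposite signs in all 3 pairs, and both intervals included 0.

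TLR21, which in chicken recognises unmethylated CpG DNA, was lower in deltaP cells in 3 of 3 pairs by its brightest probe set. Its values were 6.9, 6.74 and 6.72 in wild type and 6.34, 6.5 and 6.52 in deltaP cells, without overlap. The mean difference was -0.34 ± 0.19 (SD, n = 3 pairs), a 1.26-fold higher level in wild type. The interval ran from -0.81 to 0.14 (limma with the block, unadjusted p = 0.131, adjusted p = 0.616). The other TLR21 probe sets were below the filter, with group means of 2.98 and 3.02 for one and 1.99 in both groups for the other, so they gave no check of this difference. TLR7 and TLR21, both of which sense nucleic acids in endosomes, differed in opposite directions. That contrast between the genes was not tested.

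MYD88, the adaptor shared by most of these receptors, was higher in deltaP cells in 3 of 3 pairs by its brighter probe set. The values were 10.45, 10.57 and 10.37 in wild type and 10.96, 10.85 and 11.04 in deltaP cells, without overlap. The pair differences of 0.51, 0.28 and 0.67 gave a mean of 0.49 ± 0.2 (SD, n = 3 pairs), 1.4-fold. The interval ran from 0.17 to 0.8. In limma with the block the unadjusted p was 0.00983 and the adjusted p 0.318. The unadjusted p was 0.0618 with the mean of both MYD88 probe sets, and 0.0564 and 0.0575 without the wild type or the deltaP array of pair 1, so MYD88 left the count at 0.05 there. MYD88 ranked 237 by p among all tested genes. Without the block the adjusted p was 0.0245, and with the block it lay between 0.285 and 1 over the alternatives.

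The dimmer MYD88 probe set had a mean close to that one but another pattern over the pairs. Its values were 5.93, 6.1 and 5.37 in wild type and 6.17, 6 and 6.73 in deltaP cells, and the groups overlapped. The pair differences were 0.24, -0.11 and 1.36, with a mean of 0.5 ± 0.76 (SD, n = 3 pairs) and an interval from -0.31 to 1.3. Most of this mean came from pair 3, the pair in which the control RNAs were also higher on the deltaP array. The brighter probe set also had its largest difference, 0.67, in pair 3, where the median of the tested member genes was -0.21. The part of the control shift in either probe set was not tested. In limma with the block its adjusted p over all tested probe sets was 0.685.

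**Figure D2:**
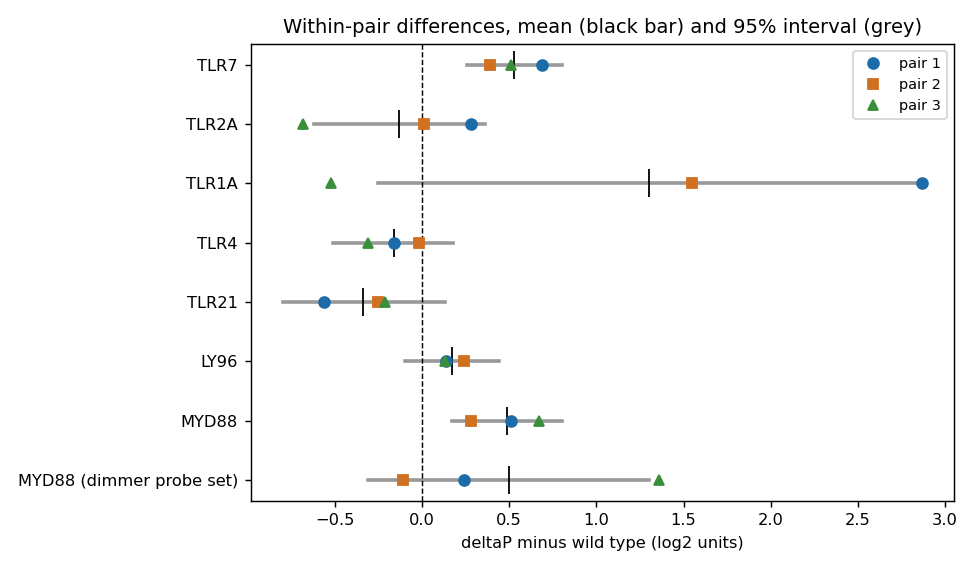
Differences of deltaP minus wild type in log2 units (horizontal axis) in the 3 pairs for each tested probe set, with the mean as a black bar and the 95% interval of the limma fit over probe sets in grey. The intervals of TLR7 and of the brighter MYD88 probe set lie above 0, and the other 6 include 0.

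Counted together, 4 of the 7 tested genes were higher and 3 lower in deltaP, and in 5 of 7 the groups did not overlap, where 33.3% of all tested genes did the same. Of these 5, TLR7, MYD88 and LY96 were higher (17.5% of all tested genes) and TLR4 and TLR21 lower (15.9%). Their median log2 difference was 0.17, beside 0.01 over all tested genes. In pairs 1 and 2 the members' medians were 0.28 and 0.24 with 5 of 7 genes higher, and in pair 3 the median was -0.21 with 3 of 7 higher. Over all tested genes these medians were 0.03, 0.02 and -0.04. The exact two-sided sign-flip test of 3 pairs cannot go below 0.25, and that value was reached by TLR7, TLR4, TLR21, LY96 and the brighter MYD88 probe set. It is reached whenever all 3 differences share a sign, so it restates the lack of overlap and adds no further test.

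TLR3, TLR5 and TLR15 were dim in both groups. They sense double-stranded RNA (TLR3), bacterial flagellin (TLR5) and proteases of fungi and bacteria (TLR15). With the dim TLR21 probe sets, 10 probe sets were below the filter, and their means over the 6 arrays lay between 1.99 and 3.34. In 5 of these 10 all 3 pair differences were within 0.2 log2 units. The brightest TLR3 probe set had values of 3.01, 3.24 and 3.06 in wild type and 3.66, 3.43 and 3.61 in deltaP cells. These did not overlap, with a difference of 0.46 ± 0.24 (SD, n = 3 pairs), but all lay under the filter value. The other 2 TLR3 probe sets did not share the pattern. A dim probe set each of TLR3, TLR15 and TLR21 is marked A1 in its name, where the others are marked S1. Which strand these probe sets measure was not tested, so they may not be second measures of the same RNA.

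In 2 of the 10 dim probe sets a difference over 1 appeared in pair 3 alone. A TLR15 probe set had values of 3.1, 3.13 and 2.2 in wild type and 3.12, 3.1 and 4.03 in deltaP cells, that is, differences of 0.02, -0.02 and 1.84. The other TLR15 probe sets had pair 3 differences of 0.05, in the one marked A1, and -0.00086. The TLR3 probe set marked A1 had values of 2.58, 2.58 and 1.92 in wild type and 2.56, 2.55 and 3.21 in deltaP cells, a pair 3 difference of 1.29. No background level was measured, so whether TLR3 or TLR15 lay above background in either group was not tested. For TLR5 the brighter probe set had differences of 0.46, 0.0033 and -0.0025, so only pair 1 differed. The deltaP value 4.03 of TLR15 was the 1 value of a dim member probe set over the filter.

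**Figure D3:**
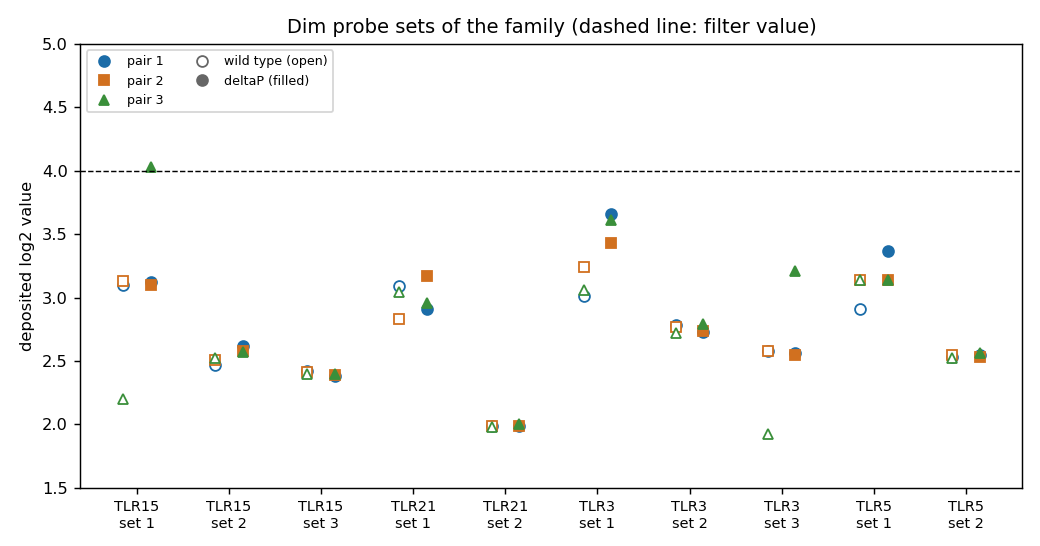
Deposited log2 values (vertical axis) of the 10 probe sets of the family below the filter, wild type as open and deltaP as filled symbols, with the filter value of 4 as a dashed line. The probe sets of a gene are ordered by their wild type mean, and a pair 3 difference stands out in the first set of TLR15 and the third of TLR3.

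The partners of the receptors were described from 6 lists of pathway genes, sorted by role, with roles as known from mammals. These lists were chosen with earlier results of these data known. Of 127 entries, 31 matched no annotated gene by symbol, CD14 and IRAK1 among them, and 72 genes were tested. None of the 72 passed the threshold in limma with the block (smallest adjusted p = 0.26), and 0% of all tested genes did. At an unadjusted p under 0.05 there were 12 of 72, against 9.93% of all tested genes. One of the 12, MAP2K6, was over 4 on the 3 wild type arrays alone, so it entered only through the group where it is high; without it there were 11 of 71. Of the 72, 43 had a positive and 29 a negative mean difference; the median was 0.06 log2 units, beside 0.01 over all tested genes.

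Among co-receptors and chaperones 0 of 5 tested genes had an unadjusted p under 0.05 in limma, against 9.93% of all tested genes. Of the 5, 3 were higher and 2 lower. CD180, a receptor homologue without a TIR domain, had differences of -0.62, -0.03 and -0.42 in pairs 1, 2 and 3. LY86, its partner and a relative of LY96, had -0.09, -0.18 and -0.05 at group means of 15.27 and 15.17. UNC93B1, which carries the endosomal receptors such as TLR7 to their compartment, had 0.14, -0.02 and 0.46 (limma adjusted p = 0.759 for its own mean difference). The mean of UNC93B1, 0.2 (limma unadjusted p = 0.322), was positive like that of TLR7 and those of 51.3% of all tested genes. Its largest difference was in pair 3, and its only negative pair was pair 2 at -0.02. The contrast between UNC93B1 and TLR7 was not tested. LBP, which transfers lipopolysaccharide, had 1.22, 0.5 and -0.21.

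Among adaptors and kinases 14 of 25 tested genes had positive and 11 negative differences around a median of 0.01. In limma 2 of 25 had an unadjusted p under 0.05, or 1 of 24 without MAP2K6, against 9.93% of all tested genes. BTK, a cytoplasmic tyrosine kinase of B and myeloid cells that also binds TIR domains, was 1.32-fold higher with differences of 0.28, 0.59 and 0.32 (limma adjusted p = 0.419). MAP2K6, a kinase upstream of p38, had differences of -0.42, -0.63 and -1.29 at group means of 4.57 and 3.79, and is given as values only for the reason above. MAPK8, which encodes the kinase JNK1, had -0.79, 0.11 and -1.46, and UBE2N, the ubiquitin-conjugating enzyme used by TRAF6, had 0.14, 0.03 and 0.41. The components that act directly after MYD88 had mixed signs, between genes and between pairs. IRAK4 had differences of 0.74, 0.89 and -0.35, IRAK2 of -0.28, 0.09 and -0.14, and TRAF6 of -0.69, 0.1 and -0.28. Their means were 0.43, -0.11 and -0.29, with unadjusted p of 0.171, 0.422 and 0.186 in limma. TICAM1, the adaptor of TLR3, was at 0.08 and TIRAP, the bridging adaptor of TLR4, at 0.01.

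Transcription factors of the pathway also went both ways, 5 of 9 higher and 4 lower. IRF7, which MYD88 engages after TLR7 binds RNA, was 1.4-fold higher with differences of 0.61, 0.37 and 0.47, all positive. Its unadjusted p was 0.0208 and its adjusted p 0.386 in limma. IRF8, a factor of monocyte and dendritic cell development, was 1.44-fold higher in wild type with differences of -0.27, -0.26 and -1.04 (limma adjusted p = 0.431). CEBPB had -0.36, -0.15 and -0.19, and CREB1 had -0.07, 0.32 and 1.26. The NF-kB subunit genes NFKB1 and REL had mean differences of 0.11 and 0.04, and RELA and NFKB2 were below the filter.

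Of the inhibitors of the pathway, 9 of 13 tested genes had a positive mean difference, where 51.3% of all tested genes did. The list's median was 0.13, with -0.0015, 0.23 and -0.11 in pairs 1, 2 and 3, so the pairs did not share a direction. SOCS1, a feedback inhibitor of cytokine receptors that also limits signalling by these receptors, was 2.27-fold higher with differences of 1.16, 0.54 and 1.83 (limma unadjusted p = 0.00498, adjusted p = 0.26). TOLLIP, which binds IRAK kinases and receptor tails, was 1.28-fold higher with 0.5, 0.31 and 0.25 (limma unadjusted p = 0.0154, adjusted p = 0.358). Both were higher in 3 of 3 pairs, as were 17.5% of all tested genes, but they were named for the smallest p of the list. Over the list 5 of 13 genes kept 1 direction in all 3 pairs, where 33.3% of all tested genes did. An unadjusted p under 0.05 in limma was found for 2 of 13, against 9.93% of all tested genes. TNIP2 had -0.1, -0.05 and -1.07 and the phosphatase gene PTPN6 had 0.39, 0.04 and 0.13. NFKBIA and TNFAIP3, the feedback inhibitors that NF-kB itself induces, had mean differences of 0.13 and -0.06 with unadjusted p of 0.503 and 0.72 in limma.

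The 12 pathway genes at an unadjusted p under 0.05 in limma, or 11 without MAP2K6, included 5 of 11 tested cytokine and effector targets. Of all tested genes, 9.93% were under that value. The list was chosen with earlier results of these data known, so this count is no test of the list. The list had 22 matched genes, and those not tested did not pass the filter. Among these, IL10 had group means of 2.6 in wild type and 2.7 in deltaP, and CD40 of 3.87 and 4.07. IL12B had group means of 4.36 in wild type and 3.26 in deltaP. Its pair differences of -2.25, 0.12 and -1.19 were not tested. SAA, an acute phase protein gene, had differences of 0.99, 0.46 and 1.19 (limma adjusted p = 0.278). IL18, an inflammasome-processed cytokine gene, was 1.46-fold higher with 0.71, 0.29 and 0.63 (limma adjusted p = 0.327). The related chemokine genes IL8L2 and IL8L1 differed in opposite directions. IL8L2 had 1.62, 1.25 and 0.36 (limma adjusted p = 0.28), and IL8L1 had -0.54, -0.44 and -1.12 (limma adjusted p = 0.397). The fifth, ACOD1, the enzyme gene that makes itaconate in activated macrophages, had 0.68, 0.64 and 0.52 from a wild type mean of 4.38, close to the filter value. CCL4, a chemokine gene, had 0.82, -3.1 and 3.1, so that its mean of 0.27 describes no pair. IL6 had group means of 4.2 and 4.06, IL1B was at 1.98 in both groups, and the mean difference of NOS2, the inducible nitric oxide synthase gene, was -0.03.

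Other sensors of nucleic acids and bacterial products had 1 of 9 tested genes at an unadjusted p under 0.05 in limma, against 9.93% of all tested genes. NOD1, a cytoplasmic sensor of peptidoglycan, was 1.33-fold higher in wild type with differences of -0.5, -0.29 and -0.46 (limma unadjusted p = 0.0265, adjusted p = 0.407). The cytoplasmic RNA sensors IFIH1 and DHX58 had pair 3 differences of 2.42 and 2.45, and the antiviral gene OASL had 3, against values between -1.13 and 0.1 in pairs 1 and 2. EIF2AK2, of the same list, had 0.17, -0.51 and 1.1. Among the tested members 3 of 7 were higher and 4 lower in pair 3. The pair 3 difference of TLR7, 0.51, lay between those of its other pairs. That of the brighter MYD88 probe set, 0.67, was its largest. The part of this pair 3 rise in the members' differences was not tested. The DNA sensor gene CGAS had a mean difference of -0.04.

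**Figure D4:**
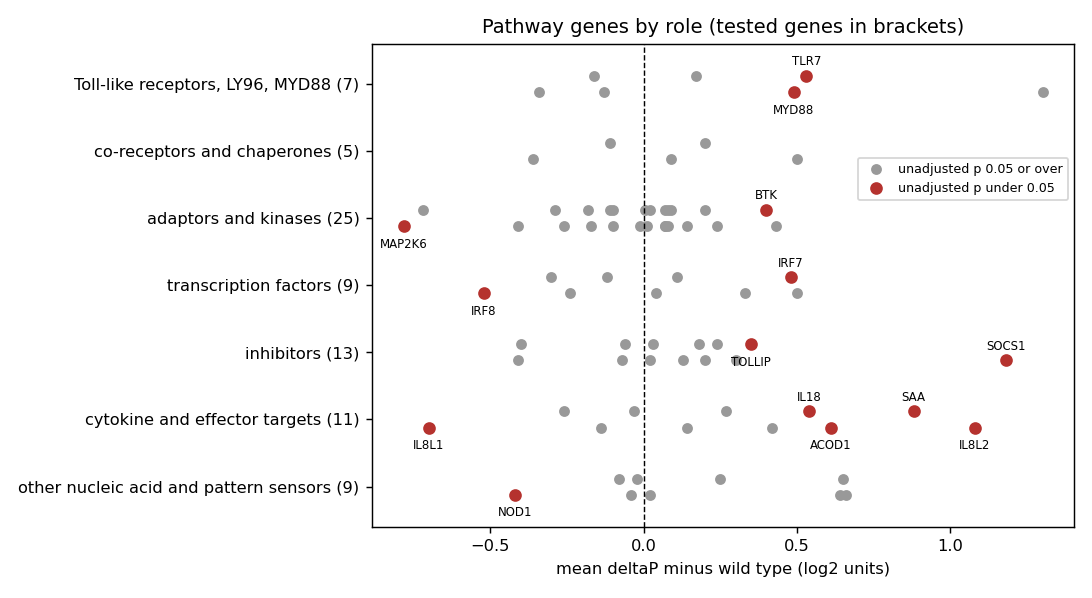
Mean difference of deltaP minus wild type in log2 units (horizontal axis) for each tested gene of the family and of the 6 pathway lists, 1 point per gene, with genes at an unadjusted limma p under 0.05 in red and named; MAP2K6 was over the filter in wild type alone. None has an adjusted p under 0.05, and the red points lie on both sides of 0.

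By Euclidean distance over the 3 pair differences among 7768 genes, the 3 genes most like TLR7 were NRP2 at 0.06, KLF6 at 0.068 and IRF7 at 0.088. Their differences in pairs 1, 2 and 3 were 0.71, 0.35 and 0.48 for NRP2 and 0.66, 0.33 and 0.49 for KLF6, with those of IRF7 given above. The 3 most like MYD88 were SYT11 at 0.094, AP5M1 at 0.11 and CCNE2 at 0.11. With 3 values per gene, 4 genes lay within a distance of 0.1 of TLR7 and 1 within that distance of MYD88.

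The monoblast label was checked against marker lists. Of 15 monocyte and macrophage markers with a probe set, 13 were above the filter, with CSF1R at group means of 12.82 and 12.51 and SPI1 at 13.56 and 13.68. Macrophage genes above it included C1QA at 6.26 and 6.71, TIMD4 at 5.75 and 6.03 and LGMN at 10.61 and 11.04. MRC1, at 2.62 and 2.64, and MARCO, at 3.66 and 4.02, did not pass the filter, so these markers do not place the cells at a stage of maturity. None of 5 B lymphocyte markers, 1 of 9 fibroblast and 1 of 6 endothelial markers (PECAM1) were above it. Of the T lymphocyte list 4 of 9, of the erythroid list 2 of 3, of the thrombocyte list 2 of 4 and of the heterophil and granulocyte list 8 of 9 were above it. In wild type and deltaP, CD3D had group means of 10.59 and 10.02 and CD28 of 10.48 and 10.24. CD247 was at 7.73 and 8.12 and CD3E at 6.06 and 6.31, while CD4, CD8A, CD5, LCK and ZAP70 were below the filter. The T lymphocyte and erythroid markers above the filter all changed sign between pairs, though CD247 only by a value of -0.01 in pair 3 after 0.57 and 0.6. The widest were CD3E with differences of 0.41, 2.52 and -2.19, CD3D with -1.17, 1.07 and -1.63, and HBAD with 2.91, 0.29 and -2.65. On the log2 scale of the summed signal, the heterophil list ran from 16.79 to 17.36 in wild type and from 16.19 to 16.71 in deltaP arrays, and the monocyte list from 16.83 to 16.98 and from 16.68 to 16.81. The summed heterophil signal follows its brightest genes, such as AvBD7 (mean log2 difference -0.31) and CATH1 (-0.75), and markers of the same list differed the other way: S100A12 was at 2.17, EXFABP at 1.08 and CSF3R at 0.02. The thrombocyte list ran from 11.88 to 12.73 and from 10.76 to 11.61, which is F13A1 (-1.1), a gene that macrophages also express. The other thrombocyte marker above the filter, TUBB1, was at -0.08. Heterophils and thrombocytes also carry Toll-like receptors. The part of these shifts in the members' differences was not tested, and in bulk RNA a change in the number of cells of a type and a change in RNA per cell cannot be told apart.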

How the data were processed

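The members and gene lists were chosen with earlier results of these data known. The authors deposited 1 normalized log2 value per probe set and array; per the submitters' processing notes the tools were Partek 6.4 and GCRMA, and no source used here gives the step that removed the replicate number. GCRMA pulls dim probe sets towards a floor, so their differences can be compressed or inflated. Deviations from the group means correlated at -1 between the arrays of each of the 3 pairs, a result of the centring; what arrays with 1 number share is not in the labels.

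Probe sets with a log2 value over 4 in at least 3 of 6 arrays were kept (16199 of 38439 without the 96 controls), and a gene stood by its brightest one. Differences were tested over all 7768 genes, or all kept probe sets, in limma 3.58.1 under R 4.3.3 with a replicate block. The fit used lmFit, then eBayes with a trend on intensity. Tests were two-sided, with Benjamini-Hochberg adjustment. The fits were also run on simulated data with changes of 3 log2 units. These are larger than the mean difference of any tested member, so that run does not cover changes of the members' size. Gene symbols came from the platform annotation, and lists were matched by symbol. In each list up to 4 genes with the smallest p were named, and further genes were named after their values were seen to say what moved. A RefSeq table of assembly GRCg7b gave neighbouring genes only. Alternatives were no block, other filters, centring, quantile normalization, other eBayes settings, the mean of a gene's probe sets, and each array left out.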

Additional observations from a re-analysis of the deposited data

How the results depend on the processing

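Without the replicate block, limma called 640 genes in all (8.24%), 2 of the 7 tested members (TLR7 and MYD88) and 11 of the 72 tested pathway genes, where the fit with the block called 0 of each. The fit without the block counts degrees of freedom that the centred values do not hold. All 3 counts were 0 under each other alternative, the 6 that leave out 1 array included. Of 104 repeats of a member probe set's difference under an alternative, 100 kept their direction and side of the threshold; 2 passed it, both without the block (TLR7, adjusted p = 0.0135, and MYD88, adjusted p = 0.0277, over probe sets in limma), and 2 changed sign. Both sign changes were TLR2A without an array of pair 3; with 1 array left out its difference ran from -0.33 to 0.14. Leaving out 1 array also removes what its partner adds, so these fits are not separate checks. With 3 differences per gene, no gene passed in limma with the block, whatever the size of its change. The smallest adjusted p over all tested genes was 0.11 in that fit.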
